A study of Homo sapiens with 8 samples.

Results

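RNA polymerase subunits and the factors that assemble ribosomes, unwind RNA and modify tRNA were examined in MDA-MB-231, a human cell line established from a triple-negative breast tumour. Members were chosen by gene symbol. They are BOP1, MRTO4 and every listed gene whose symbol begins with POLR, RRP, EXOSC, TRMT, IMP3 or IMP4, or with NOP, NOL, UTP, PUS, DDX or NOC followed by a digit. The rule found 45 genes among the 2998 genes listed in any of 3 deposited tables. Of these, 43 stood in the table for brazilin, 2 in the table for acetylated brazilin and 0 in the table for methylated brazilin.

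Brazilin is a phenolic compound of sappanwood and brazilwood. The study measured RNA in 8 samples of 4 groups, 2 samples each. The cells received brazilin itself, its acetylated form, its methylated form, or no treatment. The 3 compounds were added at seeding, at 20 µM, and renewed daily until RNA was taken at 48 h. All groups are the same line in the same serum-supplemented medium, and the labels do not say whether paired samples were separate cultures.

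Each table gives, for genes the authors called significant, the mean FPKM of a treated and an untreated group, a log2 fold change of treated over untreated cells and a q-value. FPKM is the number of fragments of a transcript scaled to its length and to the mapped fragments of the library, so levels are per length and relative to all RNA in the sample. All listed genes have a q-value under 0.05 and an absolute log2 fold change of at least 0.5. A gene without an entry has no value here, which does not show that it was stable. Neither single samples nor library totals are given, so sequencing depth is unknown and no test across samples could be run. Intervals below are 95% intervals from an error derived from the authors' q-value, which is too wide rather than too narrow if each fold change was divided by its own error to give the p-value. Unless another source is named, levels, log2 fold changes and q-values are those of the authors' deposited tables. Of 5 markers of this line, CD44 and CAV1 were listed, at 226 and 276 FPKM with brazilin and 132 and 180 FPKM in untreated cells. Of 15 markers of leukocytes, fibroblasts and endothelium 3 were listed, CD79A at 0.495 FPKM with brazilin and 0.065 FPKM in untreated cells, PECAM1 at 0.905 and 1.345 FPKM and KDR at 1.13 and 0.595 FPKM in the same order. No marker of the set that should be low in this line, ESR1, PGR, ERBB2, KRT18 and GATA3, has a value.

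The nuclear RNA polymerases divide transcription among them. Pol I makes the large ribosomal RNA precursor in the nucleolus, Pol II makes messenger RNA, and Pol III makes tRNA and 5S ribosomal RNA. The precursor is folded, cut and modified by the small subunit processome, by large subunit assembly factors and by small nucleolar ribonucleoproteins (snoRNPs), and its spacers are trimmed by the RNA exosome. DEAD-box helicases remodel RNA and RNA-protein complexes at many of these steps. Fast-growing cancer cells rely on this supply of ribosomes.

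With brazilin, 39 of the 43 listed genes were higher than in untreated cells and 4 were lower. That is 90.7% higher, against 47.6% of all 2885 genes listed for brazilin, of which 52.4% were lower. Of 148 annotated protein-coding genes that meet the rule, 29.1% were listed for brazilin, against 14.3% of all 20056, a share that counts genes not expressed in these cells too. The rises were moderate. The median log2 fold change over all 43 genes was 0.68, against -0.51 over all listed genes, and over the 39 that rose it was 0.69, against 0.83 over all 1374 listed genes that rose. Only 5 of the 39, or 12.8%, rose by at least 1 on the log2 scale, against 38.8% of all listed rises, and 10 lay between 0.50 and 0.60, just inside the authors' criterion. Most of these genes were well expressed, 39 of them with at least 5 FPKM in both groups. Their medians were 36.8 FPKM with brazilin and 22.2 FPKM in untreated cells, against 6.08 FPKM in both groups over all listed genes. The q-values of the 43 genes were at most 0.000575, and 31 were under 1e-10. In bulk RNA a change in each cell and a change in the make-up of the culture cannot be told apart.

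**Figure D1:**
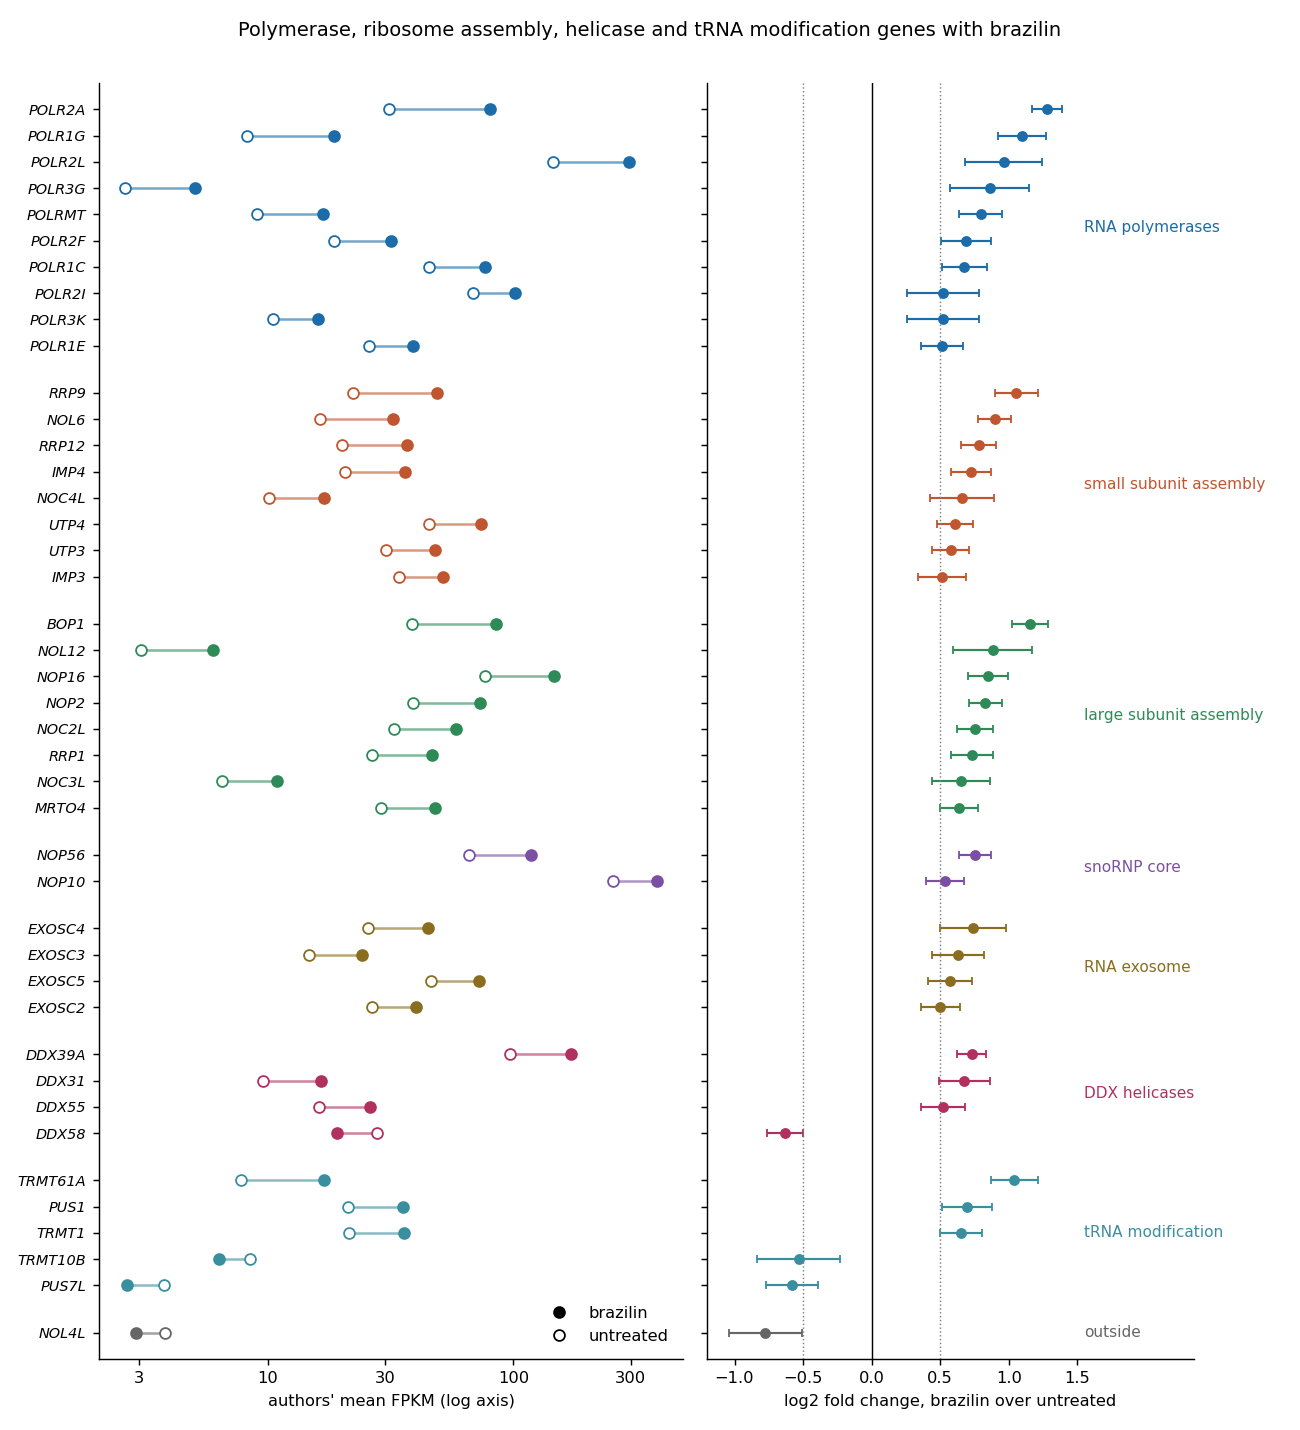
Left, the authors' mean FPKM of 42 of the 43 listed genes with brazilin (filled) and in untreated cells (open) on a log axis. Right, the authors' log2 fold change of brazilin over untreated cells with its derived 95% interval; dotted lines mark 0.5 and -0.5. Of the 42 genes drawn, 38 lie right of 0 in the panel on the right and DDX58, TRMT10B, PUS7L and NOL4L lie left of it.

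All 11 listed polymerase genes rose, out of 34 annotated, and they came from each of the nuclear enzymes. POLR2A, which encodes the catalytic largest subunit of Pol II, had the largest rise of all 43 genes. It lay at 80.5 FPKM with brazilin and at 31.1 FPKM in untreated cells (log2 1.28, interval 1.17 to 1.39, q = 2.15e-111), at chr17:7484366-7514616 of GRCh38.p14. POLR2I, a small Pol II subunit that acts in start site choice and proofreading, rose less, to 101 FPKM against 68.5 FPKM (log2 0.52, interval 0.26 to 0.79). The intervals of POLR2A and POLR2I do not overlap. POLR2I stood at 1.26 times the FPKM of POLR2A with brazilin and at 2.20 times in untreated cells. On the opposite strand AD001527.2 overlaps 61.9% and TBCB 32.9% of the exonic bases of POLR2I, and without strand information their reads cannot be separated. The other 8 genes of subunits found in Pol II alone have no value with brazilin.

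The subunits shared by Pol I, Pol II and Pol III gave 2 listed genes of 5. POLR2L, the small RPB10 subunit that helps the enzymes assemble, was at 297 FPKM with brazilin and 144 FPKM in untreated cells (log2 0.96, interval 0.68 to 1.24). This interval overlaps that of POLR2A, and CD151 on the opposite strand overlaps 22.5% of the exonic bases of POLR2L. POLR2F, the RPB6 subunit, was at 31.6 and 18.6 FPKM in the same order (log2 0.69, interval 0.51 to 0.87). POLR1C, an assembly subunit shared by Pol I and Pol III, was at 76.3 FPKM with brazilin and 45.2 FPKM in untreated cells (log2 0.68, interval 0.51 to 0.84). Genes that serve more than 1 polymerase were thus among the risers, with the highest levels of the class in POLR2L.

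Of 6 Pol I subunits 2 were listed, and they are partners. POLR1G and POLR1E encode the heterodimer that sits on Pol I and aids initiation and elongation. POLR1G was at 18.7 FPKM with brazilin and 8.21 FPKM in untreated cells (log2 1.10, interval 0.92 to 1.27), and POLR1E was at 39.2 and 25.9 FPKM in the same order (log2 0.51, interval 0.36 to 0.66). Their intervals do not overlap. On the opposite strand ERCC1 overlaps 43.5% of the exonic bases of POLR1G, and without strand information reads from the pair cannot be separated. ERCC1 is in none of the tables.

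Pol III gave 3 listed subunits of 10. POLR3G, the form of the RPC7 subunit that is known from stem cells and tumours, was at 5.04 FPKM with brazilin and 2.63 FPKM in untreated cells (log2 0.86, interval 0.57 to 1.15). POLR3K, a subunit of the termination and RNA cleavage module, was at 16.0 FPKM with brazilin and 10.5 FPKM in untreated cells (log2 0.52, interval 0.25 to 0.78). The intervals of POLR3G and POLR3K overlap. POLRMT, the single-chain polymerase of mitochondria, was at 16.8 FPKM with brazilin and 9.06 FPKM in untreated cells (log2 0.79, interval 0.64 to 0.95).

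The nucleolar factors held the largest number of listed genes, 22 of 51 annotated (43.1%), and all 22 rose. The median log2 fold change of the 22 genes was 0.73. Their levels reached from 6.0 to 383 FPKM with brazilin and from 3.06 to 255 FPKM in untreated cells.

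The small subunit processome, the large particle that forms on the nascent precursor around U3 snoRNA, gave 8 listed genes of 24. RRP9, a U3 snoRNP protein, was at 49.1 FPKM with brazilin and 22.2 FPKM in untreated cells (log2 1.05, interval 0.90 to 1.21). NOL6, a processome component, was at 32.4 FPKM with brazilin and 16.3 FPKM in untreated cells (log2 0.90, interval 0.78 to 1.01). RRP12, which takes part in maturation and export of pre-ribosomes, was at 36.8 FPKM with brazilin and 20.1 FPKM in untreated cells (log2 0.78, interval 0.65 to 0.91). The other processome genes rose less. IMP4, a U3-associated protein, had a log2 fold change of 0.72, UTP4 one of 0.61 and UTP3 one of 0.57. The remaining 2, IMP3, the partner of IMP4, and NOC4L, were named after their values were seen and had log2 fold changes of 0.51 and 0.66. SNX33 on the opposite strand overlaps 31.2% of the exonic bases of IMP3.

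Large subunit assembly gave 8 listed genes of 14, the highest share of any role with more than 3 annotated genes. BOP1 forms with PES1 and WDR12 the PeBoW complex, which is needed to process the precursor towards 28S and 5.8S RNA. It was at 85.1 FPKM with brazilin and 38.5 FPKM in untreated cells (log2 1.16, interval 1.02 to 1.29), and the interval of NOP2 lay entirely below it, at 0.71 to 0.95. NOP2, an RNA cytosine methyltransferase of the large subunit, was at 73.4 FPKM with brazilin and 38.9 FPKM in untreated cells (log2 0.83). On the same strand the gene model AC006064.6 overlaps 54.4% of the exonic bases of NOP2, so the counting may divide reads between them. NOP16 was the most abundant of the role, at 147 FPKM with brazilin and 76.8 FPKM in untreated cells (log2 0.85, interval 0.70 to 0.99). NOC2L, at 58.3 FPKM with brazilin and 32.5 FPKM in untreated cells, had a log2 fold change of 0.75 and RRP1 one of 0.73. MRTO4, a relative of the stalk protein P0 that holds its place during assembly, was at 47.8 FPKM with brazilin and 29.02 FPKM in untreated cells (log2 0.63, interval 0.50 to 0.77). The remaining 2, NOC3L and NOL12, were named after their values were seen and had log2 fold changes of 0.65 and 0.88. The gene model Z83844.1 overlaps 22.0% of the exonic bases of NOL12 on the same strand, and ARL10 overlaps 12.02% of those of NOP16 on the opposite strand.

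Both listed genes of the snoRNP core rose, out of 3. NOP56, a core protein of the snoRNPs that guide ribose methylation, was at 118 FPKM with brazilin and 65.8 FPKM in untreated cells (log2 0.75, interval 0.63 to 0.87). NOP10, a small protein of the snoRNPs that guide pseudouridylation and of telomerase, was the most abundant of the 43 genes, at 383 FPKM with brazilin and 255 FPKM in untreated cells (log2 0.53, interval 0.40 to 0.67). Their intervals overlap.

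The RNA exosome, the complex that trims RNA from its 3′ end, gave 4 listed genes of 10, all of them ring or cap subunits. EXOSC4 was at 44.8 FPKM with brazilin and 25.5 FPKM in untreated cells (log2 0.74, interval 0.50 to 0.98), with an antisense gene over 19.5% of its exonic bases. EXOSC3 was at 24.2 and 14.7 FPKM in the same order (log2 0.63, interval 0.44 to 0.82). EXOSC5 had a log2 fold change of 0.57 and EXOSC2 one of 0.50, the smallest rise among the 43 genes. All 4 intervals overlap, so no order among the exosome genes can be read from these values. EXOSC10, a catalytic subunit, has no value here.

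Of 39 annotated DDX genes 4 were listed (10.3%), near the 14.3% of all annotated protein-coding genes. Helicases with other symbols are not part of this count. DDX39A, a helicase of messenger RNA export and splicing, was at 171 FPKM with brazilin and 97.1 FPKM in untreated cells (log2 0.73, interval 0.62 to 0.83). It has a close relative in DDX39B that may share reads, although the search for near-identical coding sequences found no copy of DDX39A. DDX31 and DDX55, whose yeast relatives act in large subunit assembly, had log2 fold changes of 0.68 (interval 0.49 to 0.86) and 0.52 (interval 0.36 to 0.68). The fourth, DDX58, encodes RIG-I, the cytoplasmic sensor of viral RNA, and is no ribosome assembly factor. It fell to 19.1 FPKM with brazilin, against 27.8 FPKM in untreated cells (log2 -0.63, interval -0.77 to -0.50). Of the 13 DDX genes with a role in ribosome assembly, 2 were listed (15.4%), which is near the 14.3% as well.

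The tRNA modification genes went both ways, with 3 of 5 listed genes higher, where 47.6% of all listed genes were higher. The 5 are 23.8% of 21 annotated, against 14.3% of all annotated protein-coding genes, and are too few to set this class apart. TRMT61A, the catalytic subunit of the enzyme that methylates adenosine 58 of tRNA, was at 17.0 FPKM with brazilin and 7.75 FPKM in untreated cells (log2 1.04, interval 0.87 to 1.21). TRMT1, which methylates guanosine 26, was at 35.8 FPKM with brazilin and 21.5 FPKM in untreated cells (log2 0.65, interval 0.50 to 0.80). PUS1, a pseudouridine synthase of cytoplasmic and mitochondrial tRNA, was at 35.5 FPKM with brazilin and 21.1 FPKM in untreated cells (log2 0.69, interval 0.51 to 0.87). TRMT10B, a methyltransferase for position 9 of tRNA, fell to 6.34 FPKM with brazilin, against 8.48 FPKM in untreated cells (log2 -0.53, interval -0.84 to -0.23). PUS7L, a relative of PUS7, fell to 2.68 FPKM with brazilin, against 3.77 FPKM in untreated cells (log2 -0.58, interval -0.77 to -0.39). TRMT6, the partner of TRMT61A, has no value here.

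The remaining gene that fell, NOL4L, carries a nucleolar name but is not known as an assembly factor. It was at 2.90 FPKM with brazilin and 3.81 FPKM in untreated cells. The deposited log2 fold change was -0.77 and the log2 ratio of its FPKM means -0.39. Taking the log2 ratio of FPKM means in its place, again from 0.5 upwards, 39 genes of the set were higher and 1, DDX58, was lower, since NOL4L, PUS7L and TRMT10B then miss the minimum. The same change of measure moves all listed genes from 47.6% to 58.4% higher.

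**Figure D2:**
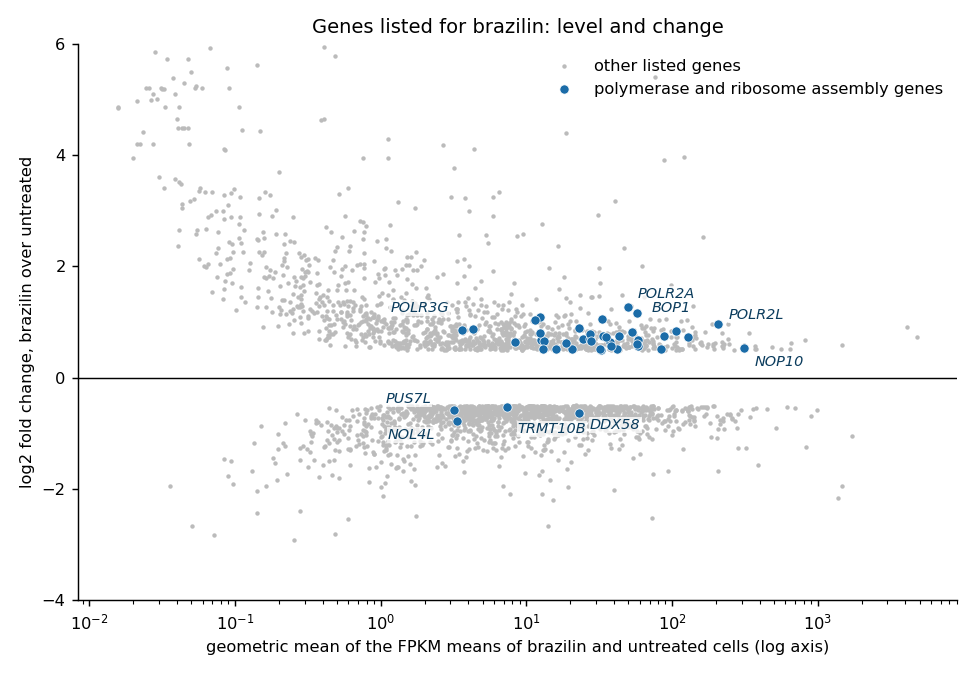
Each point is a gene listed for brazilin, with the geometric mean of its FPKM in both groups on a log axis and the authors' log2 fold change of brazilin over untreated cells. Blue points are the 43 genes of this set, most at moderate to high levels and all between -0.77 and 1.28. PUS7L, NOL4L, POLR3G and NOL12 lie lower, with untreated means under 5 FPKM. A further 13 genes outside the set lie beyond the plotted range of -4 to 6.

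Transcript length and base composition moved with direction in this table, and the set is not neutral in either. The 39 higher genes had a median transcript length of 2303 bases and a median GC content of 57.2%, and the 4 lower genes 5465 bases and 43.6%. Over all listed genes the medians were 2450.5 bases and 55.1% for those that rose and 4230 bases and 45.4% for those that fell. In the shortest of 5 length classes 71.6% of all listed genes were higher, with 12 of 12 genes of the set. In the second class the share was 62.6%, with 13 of 14 genes of the set. In the third class the share was 47.1%, with 9 of 9 genes of the set, and in the fourth 35.1%, with 5 of 6. The longest class, with 21.5% higher, held only NOL4L and PUS7L, both lower. By GC content the set gave 2 of 4 higher in the lowest class, 4 of 4 in the second and 6 of 7 in the third. In these classes 20.4%, 35.1% and 46.2% of all listed genes were higher. The fourth and the highest GC class gave 14 of 15 and 13 of 13 of the set, against 61.1% and 75.2% of all listed genes. POLR2A was placed by a partial coding model of 2083 bases, although its longest annotated transcript has 6751 bases and would fall in the longest class. The part of length and composition in the direction of these genes was not tested.

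**Figure D3:**
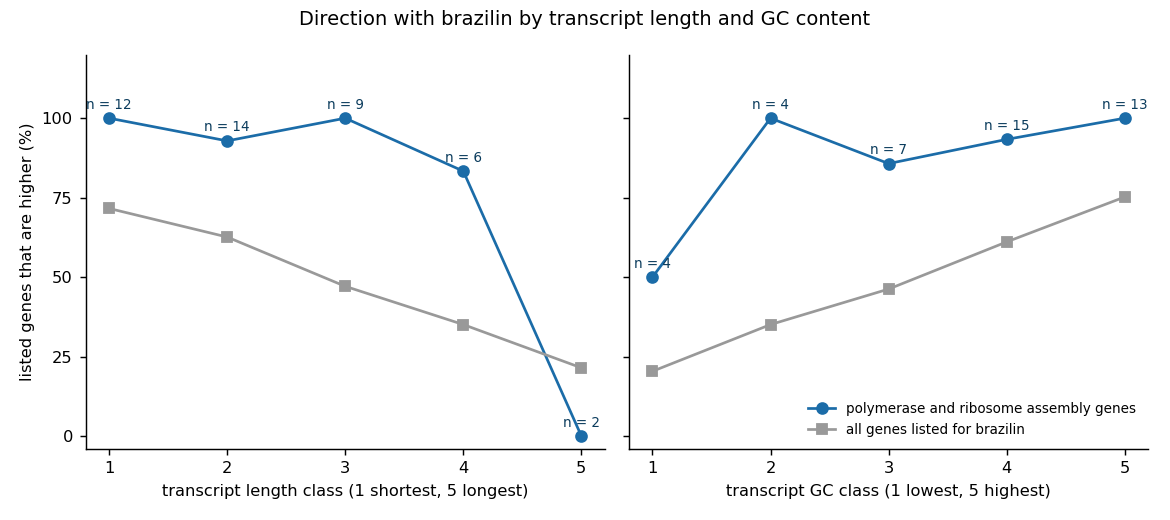
Share of listed genes that were higher with brazilin, in 5 classes of transcript length (left) and of GC content (right), for the genes of the set (blue circles, with their number) and for all listed genes (grey squares). In the middle length class 9 of 9 genes of the set were higher against 47.1% of all listed genes; classes with 2 to 4 genes carry little weight.

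The start sites of these genes were compared because so many moved in 1 direction. RefSeq promoters (GRCh38.p14), 250 bases before to 50 after the start, were held for 31 of the 39 higher genes. The E-box CACGTG, the letters read by MYC, MAX and related factors and the same on both strands, stood in 12 of these 31 promoters (38.7%). Among all 27305 promoters of the table the share was 7.43%, among all listed genes that rose 11.3%, and among listed genes that fell 8.51%. The windows below, 1 for each role that had a match, show the E-box in capitals with its flanks, written in the direction of the gene. The promoters were not matched for base composition, and a match describes letters in a window and is no binding site by itself. Annotated genes that meet the rule but were not listed were not counted apart. The share therefore describes these genes and cannot be tied to their rise with brazilin.
POLR1G (chr19:45406620-45406649, + strand): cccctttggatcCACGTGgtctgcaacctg
RRP9 (chr3:51941892-51941921, - strand): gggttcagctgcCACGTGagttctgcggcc
MRTO4 (chr1:19251807-19251836, + strand): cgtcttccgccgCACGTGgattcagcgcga
NOP10 (chr15:34343130-34343159, - strand): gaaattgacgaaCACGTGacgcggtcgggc
EXOSC5 (chr19:41397431-41397460, - strand): taaacgctaagcCACGTGcggacgcccagg
DDX31 (chr9:132669988-132670017, - strand): cctcgcgcgtccCACGTGgggtcccgggcc
TRMT61A (chr14:103529216-103529245, + strand): gcgtcgcggaggCACGTGtggagccccggc

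Other motifs were unevenly shared as well. The ETS motif CCGGAAG, on either strand, stood in 13 of 31 promoters of higher genes (41.9%), against 10.7% of all promoters and 15.1% of all listed genes that rose. The NRF1 motif stood in 6 of 31 (19.4%), against 6.28% and 8.30%. The GC box GGGCGG was near the listed background, with 22 of 31 (71.0%) against 67.5% of listed genes that rose and 67.8% of those that fell. Among all promoters its share was 44.6%. The TATA box TATAAA stood in 0 of 31, against 11.95% of all promoters, 11.8% of listed genes that rose and 5.75% of those that fell. All 5 motifs were searched on both strands in the same 300 bases, and a position can count for more than 1 of them. For these motifs too, unlisted genes that meet the rule were not counted apart. POLR2A, the gene that rose most, had no E-box in its window. Its 200 bases before the start and those of DDX58, the helicase gene that fell, are shown with GC boxes in capitals.
POLR2A (chr17:7484166-7484365, + strand): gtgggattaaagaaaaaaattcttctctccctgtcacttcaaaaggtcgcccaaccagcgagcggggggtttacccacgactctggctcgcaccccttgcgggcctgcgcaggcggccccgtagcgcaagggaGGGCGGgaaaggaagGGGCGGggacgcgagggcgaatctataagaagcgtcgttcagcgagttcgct
DDX58 (chr9:32526197-32526396, - strand): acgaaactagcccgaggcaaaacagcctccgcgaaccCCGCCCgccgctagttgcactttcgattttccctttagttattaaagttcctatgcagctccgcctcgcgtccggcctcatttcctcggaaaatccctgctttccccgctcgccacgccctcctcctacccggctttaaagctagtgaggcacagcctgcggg

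Other genes of the same pathways, whose symbols the rule does not take, were read from 11 lists with 296 genes. With brazilin 74 of them were listed, 64 higher and 10 lower, with a median log2 fold change of 0.60. That is 86.5% higher, against 47.6% of all listed genes, whose median was -0.51. The share of a list that is listed stands against 14.3% of all annotated protein-coding genes. Small subunit assembly gave 11 of 34 and large subunit assembly 13 of 42, all 24 higher. BYSL, a factor of late small subunit maturation, was at 76.0 FPKM with brazilin and 39.5 FPKM in untreated cells (log2 0.86). PDCD11, a processome protein, had a log2 fold change of 0.67 and the RNA acetyltransferase gene NAT10 one of 0.60. In the large subunit list GRWD1 rose by 0.80, FTSJ3 by 0.67 and EBNA1BP2 by 0.74 on the log2 scale. PES1, the partner of BOP1, was named after its value was seen and was at 89.4 FPKM with brazilin and 54.0 FPKM in untreated cells. The E-box stood in 17 of 54 promoters of higher genes from these lists (31.5%), and unlisted genes of the lists were not counted apart.

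Transcription factors of Pol I and Pol III gave 4 of 14 and 4 of 19, all 8 higher by 0.52 to 0.61 on the log2 scale. NOLC1, a chaperone of snoRNPs and Pol I, was at 134 FPKM with brazilin and 86.2 FPKM in untreated cells, and SNAPC1, a subunit of the factor that starts small nuclear RNA genes, at 52.8 and 32.7 FPKM in the same order. CAVIN1, which also builds caveolae, and MYBBP1A rose by 0.52 and 0.60, and GTF3C6 and SNAPC2 rose by 0.53 and 0.61. Pol II general factors gave 2 higher and 1 lower of 29, a listed share no higher than the 14.3% of all annotated protein-coding genes. TCEA1, the elongation factor that rescues stalled Pol II, fell to 58.5 FPKM with brazilin, against 104 FPKM in untreated cells (log2 -0.92), while GTF2H2 and ELL rose by 1.10 and 0.62. The snoRNP list gave 2 of 15, also no higher a share than that 14.3%. NHP2 and RUVBL2 were higher by 0.82 and 0.56. Chaperones of ribosomal proteins gave 3 of 9, BCCIP, RRS1 and PDCD2L, all higher by 0.58 to 0.90. RRS1 also stands in the large subunit list and is counted once in the total over all lists.

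Among nucleolar and RNA processing genes 11 were higher and 3 lower, of 41. DHX37, a processome helicase, was at 25.4 FPKM with brazilin and 13.7 FPKM in untreated cells, and DHX34 and RBM19 rose by 0.82 and 0.78 on the log2 scale. The 3 that fell, named after their values were seen, were XRN1, the cytoplasmic 5′ exonuclease of messenger RNA decay (log2 -0.71), DHX32 (-0.56) and DHX40 (-0.52). The other tRNA genes gave 14 higher and 1 lower of 64. NSUN2, a tRNA cytosine methyltransferase, was at 80.2 FPKM with brazilin and 52.1 FPKM in untreated cells, TSEN54 of the splicing endonuclease rose by 0.94 on the log2 scale, and TSEN15 of the same enzyme fell to 29.8 FPKM, against 47.0 FPKM in untreated cells. Of 20 aminoacyl-tRNA synthetases 4 were listed, 1 higher and 3 lower, where 52.4% of all listed genes were lower, and 16 have no value. WARS1, IARS1 and SARS1 fell by 1.08, 0.77 and 0.53 on the log2 scale, and FARSA, named after its value was seen, rose by 0.61. Of the MYC network, 2 of 12 were listed, a share near the 14.3% of all annotated genes. Both were lower, as were 52.4% of all listed genes. MXI1 and MXD4, which pair with MAX at E-boxes and repress, were at 12.1 and 13.4 FPKM with brazilin. In untreated cells they were at 17.0 and 18.0 FPKM, and MYC itself has no value here. A part of this network in the changes above was not tested.

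**Figure D4:**
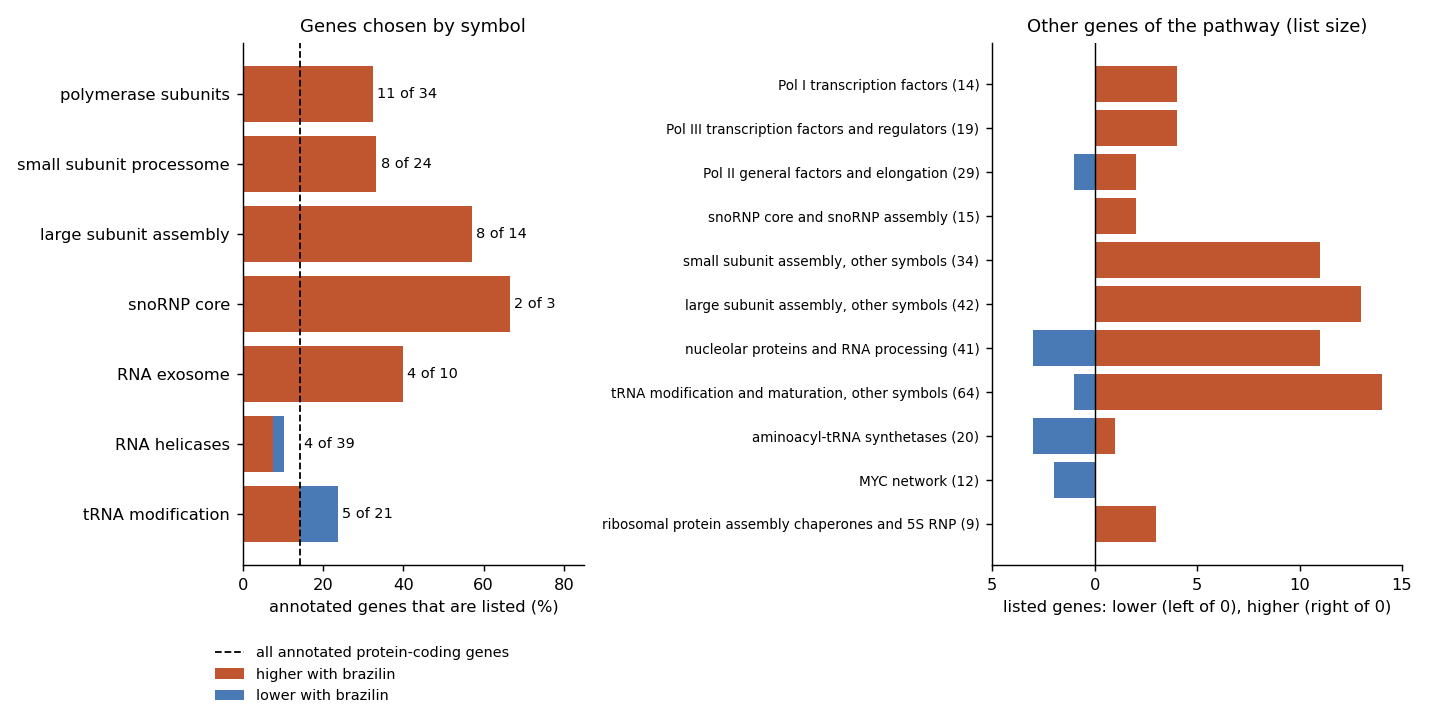
Left, percent of annotated genes of each role that are listed for brazilin, higher (orange) and lower (blue), with counts beside the bars and the 14.3% of all annotated protein-coding genes as a dashed line. Right, number of listed genes in each list of other pathway genes, higher to the right and lower to the left of 0, with the list size in brackets. The listed genes of both assembly lists are all higher. Lower are 3 of the 4 listed synthetases and both listed MYC network genes, where 52.4% of all listed genes were lower.

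The compounds differ by methyl or acetyl groups on brazilin and were used at 1 dose and time, but none of the 45 genes stood in more than 1 table. No difference between compounds could therefore be tested for any of them. Acetylated brazilin gave 2 genes, POLR2J and POLR2J2, both higher, where 62.2% of all 193 genes of that table were higher and 37.8% lower. POLR2J, a Pol II subunit of the assembly platform, was at 129 FPKM with acetylated brazilin and 90.3 FPKM in untreated cells (log2 0.53, interval 0.38 to 0.68, q = 6.12e-12). POLR2J2 was at 6.82 FPKM with acetylated brazilin and 4.31 FPKM in untreated cells (log2 0.65, interval 0.28 to 1.03, q = 0.000701). Both lie on chromosome 7, and their coding sequences are 98.1% identical over 91.5% of the POLR2J coding length. A further copy, POLR2J3, is 98.8% identical to POLR2J over 91.5% and 99.4% identical to POLR2J2 over 100% of their coding lengths. The authors' counting may therefore divide reads among these genes, and the values of POLR2J and POLR2J2 are uncertain. Neither gene has a value with brazilin, and the 43 brazilin genes have none with acetylated brazilin. Of the listed pathway genes, RPP21, a ribonuclease P subunit named after its values were seen, was in both tables, with log2 fold changes of 0.58 with brazilin and 0.59 with acetylated brazilin over the same untreated samples. ESF1, a processome factor, was the other pathway gene of the acetylated brazilin table and was lower, at 8.79 FPKM with acetylated brazilin and 12.7 FPKM in untreated cells. Methylated brazilin gave 0 of the set among its 11 genes, of which 27.3% were higher and 72.7% lower, in the authors' test as deposited, and unadjusted p-values were not analysed here.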

How the data were processed

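Per the labels' protocols, RNA was extracted with Trizol and BGI Americas made and sequenced the libraries. DESeq2, RSEM, Bowtie, StringTie and HISAT, and the builds GRCh38, hg38 and mm10, stand in the submitters' processing notes without role or version. Per the file headers, the authors deposited, for each gene, group mean FPKM values, a q-value and a log2 fold change. No source used here gives the strandedness. No count model was fitted, since there are no values per sample.

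Computed here (Python 3.11.15, pandas 2.3.3, scipy 1.17.1) were counts by role, derived errors (absolute log2 fold change over the normal quantile of the q-value as a two-sided p-value), transcript properties and exon overlaps (GENCODE release 29, principal coding transcript, 99.3% of brazilin genes matched), near-identical copies (BLAST+ 2.17.0, 98% identity over 80% of the coding length) and promoter motifs. The error was tried on simulated estimates with normal p-values. There it cannot come out too small, because a q-value is never below its p-value. That trial does not show how the error holds for 2 samples per group or for the authors' q-values. Roles were assigned by hand, and annotated members are RefSeq protein-coding genes whose symbol meets the rule. Members and lists were chosen with earlier results of these data known. Named were all genes in the acetylated brazilin table, the 6 smallest q-values per role, genes against their role's direction, genes listed for several compounds or with FPKM means against the fold change, and the 3 smallest q-values per list. For 1 Pol III subunit gene the individual values are not reported here; it is included in the counts.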

Additional observations from a re-analysis of the deposited data

How the results depend on the processing

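No paired analysis was possible because the tables hold no values per sample, and leaving out a replicate could not be run for the same reason. The count of 43 brazilin genes, 39 higher and 4 lower, fell to 5, 5 and 0 at an absolute log2 fold change of at least 1. The 4 lower genes became 2 with at least 5 FPKM in both groups, 1 by the ratio of FPKM means, 2 without genes outside the roles and 8 with RefSeq synonyms. With synonyms the 43 became 60 and the 39 higher genes 52, and without opposite-strand overlap they became 36 and 32. The median log2 fold change of 0.68 became 1.10 at a minimum of 1 and 0.80 by the ratio of FPKM means. The 2 acetylated brazilin genes, both higher, became 0 at a minimum of 1, 1 with at least 5 FPKM in both groups, 4 with synonyms and 0 on leaving out near-identical copies, by symbol family or by coding sequence. The last and the omission of 7 genes with opposite-strand overlap were chosen after seeing the data. By the ratio of FPKM means 42 of 45 genes kept direction and a size of at least 0.5, and 3 fell under it. The cause was not tested. Differences between compounds gave no value, since no gene of the set stood in 2 tables. Low FPKM cannot be turned into reads, so precision at low levels is unknown.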
